A study of Mus musculus with 2 samples.

Results

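Described here are the 36 accessible regions, of 46200 in the genome, that lie from 0.5 Mb upstream to 2 Mb downstream of Myc in megakaryocyte-erythroid progenitors (MEP), the bone marrow cells from which red cells and platelets arise. Accessibility was measured by ATAC-seq, which uses a transposase to tag open chromatin. Both libraries were made from 50000 primary MEP of adult C57BL/6J male mice, 5 to 6 weeks old, and they form 1 group of 2 biological replicates. The labels give both libraries the same donor entry and do not say that they came from separate animals. They name a pair of sequencers for replicate 1 and none for replicate 2. The labels give no second condition and no genetic change, so nothing here is a treatment effect, and neither expression of Myc nor contact between a region and Myc was measured.

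Myc encodes the transcription factor MYC, which binds E-box DNA together with its partner MAX and drives cell growth and division. The gene lies in a gene-poor stretch of the mouse genome. Its downstream neighbour is Pvt1, a long non-coding RNA gene, and enhancers of Myc in several tissues have been mapped far from the gene. In mice, a cluster of enhancers far downstream of Myc is known to be needed for its expression in blood stem and progenitor cells. MYC keeps progenitors dividing, and in mouse erythroid cells GATA1 lowers Myc as they mature. The boundaries published for that enhancer cluster were not used here, so no region below is named as one of its elements.

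Myc spans chr15:61985391-61990374 on the forward strand of mm10 (GRCm38), and distances are counted from its most upstream annotated transcription start site (TSS). Every peak with its summit from 0.5 Mb upstream to 2 Mb downstream of that TSS was taken, whatever its strength. The authors' conservative list, which keeps the peaks that pass a reproducibility threshold (irreproducible discovery rate, IDR) between the libraries, has 60 peaks there. Merging overlapping peaks gave the 36 regions. The values are the authors' own fold per peak, a ratio over local background at the summit, and for merged peaks that of the peak with the highest −log10 p. The list made from both libraries gives a pooled fold, and each library's own lists give 1 fold per library. These are a stricter list, called IDR-thresholded, and a longer one, called pseudoreplicated because it keeps peaks seen in both random subsets of 1 library's reads. The longer list is the source of the per-library folds below.

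The sequences shown first are those of the Myc promoter, of the strongest near region of each of the 3 clusters inside or beside Pvt1, and of all 7 regions of a cluster centred 1739.8 kb downstream. They were read from the RefSeq GRCm38.p6 assembly (mm10) and run along the forward strand. The promoter is the 250 bp before the first Myc TSS, and each other stretch is a summit with the 100 bp on either side. Capitals mark GATA sites (AGATAA or TGATAA, read as TTATCT or TTATCA on the reverse strand), RUNX sites (TGTGGT) and ETS sites (AGGAAGT) on either strand. GATA sites are the letters that GATA1 and GATA2, the leading transcription factors of this lineage, bind. RUNX1 and ETS factors act beside them in blood progenitors. A run with no capitals has none of these letters.
Myc promoter, chr15:61985141-61985390: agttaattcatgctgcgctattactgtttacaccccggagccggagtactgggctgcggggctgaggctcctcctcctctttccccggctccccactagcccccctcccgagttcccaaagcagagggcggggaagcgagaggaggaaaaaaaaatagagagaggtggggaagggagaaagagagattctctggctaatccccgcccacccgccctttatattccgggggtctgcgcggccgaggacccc
+44.9 kb, chr15:62030164-62030364: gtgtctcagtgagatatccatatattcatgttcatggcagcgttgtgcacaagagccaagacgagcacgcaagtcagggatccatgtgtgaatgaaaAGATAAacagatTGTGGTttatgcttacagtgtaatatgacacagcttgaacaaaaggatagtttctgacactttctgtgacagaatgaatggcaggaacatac
+137.1 kb, chr15:62122348-62122548: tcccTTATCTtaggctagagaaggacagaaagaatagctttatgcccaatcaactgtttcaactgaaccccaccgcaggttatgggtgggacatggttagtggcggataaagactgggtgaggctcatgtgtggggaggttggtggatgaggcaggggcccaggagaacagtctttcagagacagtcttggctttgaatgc
+205.8 kb, chr15:62191078-62191278: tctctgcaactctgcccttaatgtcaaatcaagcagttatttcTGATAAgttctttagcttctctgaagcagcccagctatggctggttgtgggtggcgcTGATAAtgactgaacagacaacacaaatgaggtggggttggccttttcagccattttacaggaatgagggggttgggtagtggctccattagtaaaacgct
+1724.3 kb, chr15:63709617-63709817: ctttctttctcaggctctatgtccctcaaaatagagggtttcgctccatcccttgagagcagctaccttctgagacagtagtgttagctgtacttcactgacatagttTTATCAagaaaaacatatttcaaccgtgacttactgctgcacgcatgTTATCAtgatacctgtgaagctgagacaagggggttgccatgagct
+1736.5 kb, chr15:63721751-63721951: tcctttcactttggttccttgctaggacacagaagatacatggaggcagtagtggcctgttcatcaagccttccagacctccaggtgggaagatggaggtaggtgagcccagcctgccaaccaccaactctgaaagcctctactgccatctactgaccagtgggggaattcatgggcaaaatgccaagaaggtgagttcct
+1739.6 kb, chr15:63724867-63725067: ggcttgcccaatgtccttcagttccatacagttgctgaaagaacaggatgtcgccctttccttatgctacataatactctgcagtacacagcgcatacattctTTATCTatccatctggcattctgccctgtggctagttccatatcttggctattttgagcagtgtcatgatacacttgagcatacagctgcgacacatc
+1745.8 kb, chr15:63731070-63731270: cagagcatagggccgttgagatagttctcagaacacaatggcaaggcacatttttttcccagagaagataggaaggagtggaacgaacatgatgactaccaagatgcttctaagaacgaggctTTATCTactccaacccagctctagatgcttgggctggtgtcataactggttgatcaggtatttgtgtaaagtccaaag
+1751.2 kb, chr15:63736452-63736652: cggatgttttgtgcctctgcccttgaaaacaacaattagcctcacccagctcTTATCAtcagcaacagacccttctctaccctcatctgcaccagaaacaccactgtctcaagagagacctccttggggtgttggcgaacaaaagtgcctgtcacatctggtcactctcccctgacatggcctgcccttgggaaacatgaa
+1751.8 kb, chr15:63737060-63737260: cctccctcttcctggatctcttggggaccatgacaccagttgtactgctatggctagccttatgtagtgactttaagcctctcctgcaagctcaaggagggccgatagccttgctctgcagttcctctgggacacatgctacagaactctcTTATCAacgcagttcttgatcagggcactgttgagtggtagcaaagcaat
+1755.4 kb, chr15:63740662-63740862: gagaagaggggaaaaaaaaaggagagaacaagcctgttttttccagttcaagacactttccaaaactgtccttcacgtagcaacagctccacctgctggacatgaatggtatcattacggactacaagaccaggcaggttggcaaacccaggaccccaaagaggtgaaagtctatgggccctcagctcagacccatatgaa

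The regions fell into a near group and a far group with a wide stretch between them. Within 10 kb of the Myc TSS there were 4 regions. From 10 kb to 0.5 Mb downstream there were 20, of which 18 lay inside Pvt1. None lay from 0.5 to 1.5 Mb downstream, and 12 lay from 1.5 to 2 Mb downstream. On the other side of the gene no region lay more than 10 kb upstream within the window, so the 20 near and 12 far regions were all on the Pvt1 side of Myc. Of the 36 regions, 33 were distal, meaning over 1 kb from any protein-coding TSS, against 70.9% of regions in the genome. The window held 1.44 regions per 100 kb, against 1.75 in the genome. Just outside the window, the nearest conservative regions were 0.83 Mb upstream, at a pooled fold of 6.38, and 2.01 Mb downstream, at 3.53 beside a TSS of Fam49b.

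**Figure D1:**
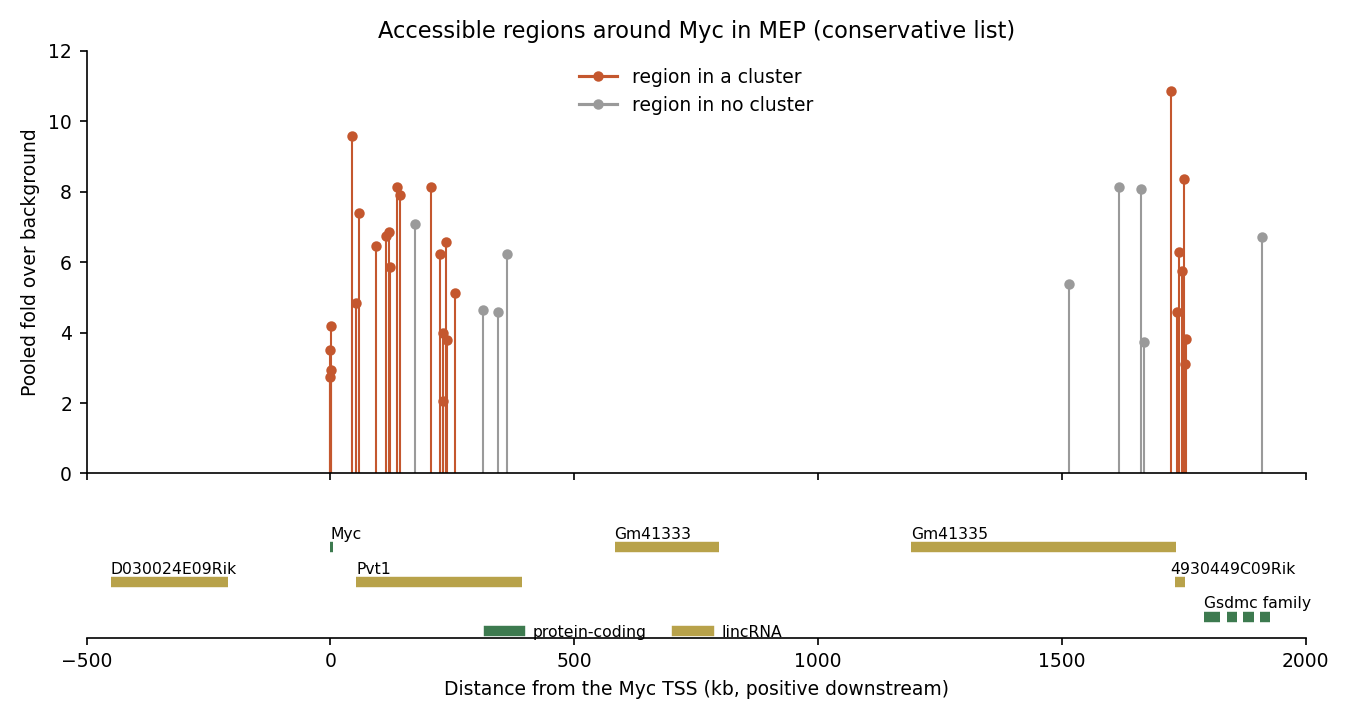
Pooled fold over background (vertical axis) of the 36 conservative regions by distance of the summit from the Myc TSS in kb (horizontal axis), with regions in clusters of 3 or more in orange, the other 9 in grey, and the longer annotated genes below. The regions gather at Myc and Pvt1 and again from 1515.5 to 1910.4 kb downstream, with the highest value, 10.9, at 1724.3 kb.

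The empty stretch ran for 1.15 Mb, from 362.4 to 1515.5 kb downstream. Of the 46179 gaps between neighbouring regions in the genome, 305 (0.66%) were at least as long. It was not empty in every list. The authors' replicated list, which is longer and less strict, had 5 regions there, the highest at 4.79. Neither library's IDR-thresholded list had any. The replicate 1 pseudoreplicated list had 1, at 4.41, and that of replicate 2 had 2, the higher at 6.04, so what lay in the stretch was called only in the less strict lists. The upstream side was likewise free of regions beyond 10 kb in each list but 1. An archived version of the replicated list, which is the longest, had 5 regions there, the highest at 4.26, and 21 in the empty stretch. Over all 35 gaps between regions of the window the median was 7.69 kb, against 14.7 kb in the genome.

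**Figure D2:**
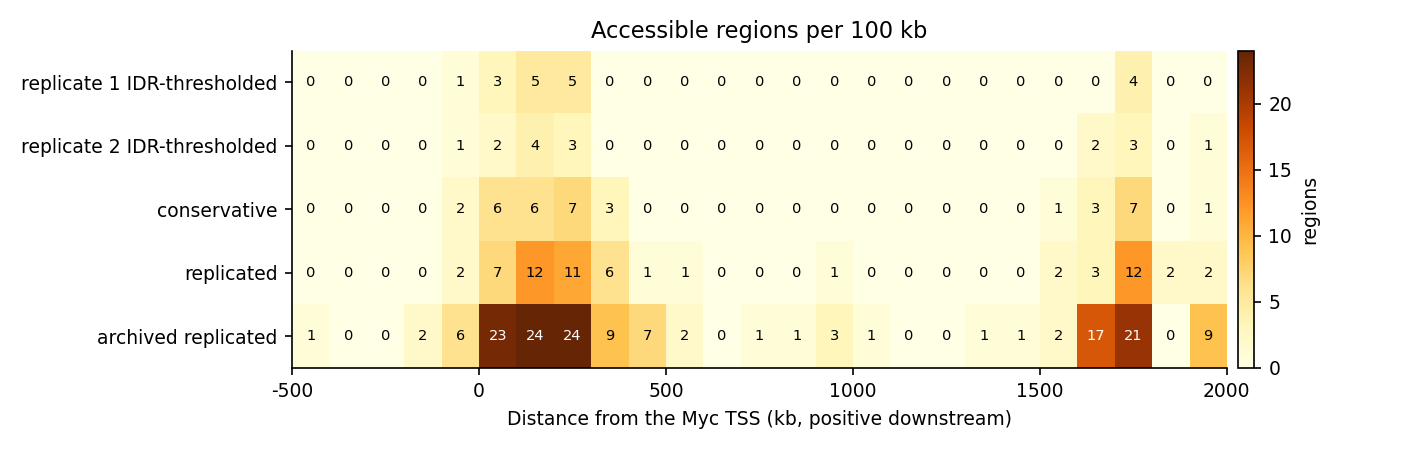
Number of accessible regions per 100 kb (colour and printed number) along the distance from the Myc TSS in kb (horizontal axis), in 5 of the authors' lists (vertical axis). The near and far groups appear in all 5 lists, and the stretch between them holds regions only in the replicated and archived lists.

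At the Myc promoter itself the chromatin was accessible in both libraries, at a low fold. The promoter region, chr15:61984868-61985867, reaches into the first exon and had a fold of 4.22 in replicate 1 and 4.16 in replicate 2 (4.19 ± 0.0419, SD, n = 2). Among protein-coding genes with a promoter region in the same library's IDR-thresholded list, 1.16% had a lower fold in replicate 1 and 0.674% in replicate 2. The median promoter stood at 8.23 in replicate 1 and 8.68 in replicate 2. The authors' −log10 p at the Myc promoter was 23.5 in replicate 1, above that of 11.3% of those genes, and 23.2 in replicate 2, above that of 9.2%. The region was not narrow, at 843 bp in replicate 1, against a median of 813 bp, and 913 bp in replicate 2, against 811 bp. Among genes with a promoter region in these lists, Myc thus had one of the lowest promoter folds, but not one of the narrowest promoter regions. In the conservative list 3.2% of such genes had a lower fold and 19.5% a lower −log10 p. Genes with no promoter region in a list were not ranked.

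The other 3 regions within 10 kb were weaker than the promoter. One lay 1.9 kb upstream (chr15:61983334-61983711), beside the TSS of the experimentally untested transcript Gm37947, with 3.63 in replicate 1 and 3.10 in replicate 2. It held a match to the CTCF motif, CCAGTAGAGGGC, on the forward strand, CTCF being the protein that bounds many chromatin loops. A region 0.9 kb upstream had a pooled fold of 2.73 and was in neither library's own list. One inside the gene, 1.8 kb downstream at another annotated Myc TSS, had 2.77 in replicate 1 and 2.94 in replicate 2. Of the 4 regions, 1, the promoter, was in both IDR-thresholded lists.

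The 250 bp before the TSS printed above had 14 CpG dinucleotides and a GC content of 60.4%. None of the 10 motifs searched was found in it, which says only that those letters are not in this stretch. Within 100 bp of the promoter region's summit, which lies past the TSS, there was a CTCF match on the reverse strand, GCCTCCTGAAGG.

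Pvt1 held the largest share of regions. Its first TSS lay in a region 52.6 kb downstream of the Myc TSS (chr15:62037639-62038096), which also holds the start of the short RNA gene Gm27913, with 4.14 in replicate 1 and 4.40 in replicate 2, in neither IDR-thresholded list. Stronger regions stood on both sides of it. The one 44.9 kb downstream, between Myc and Pvt1 (chr15:62029881-62030545), had 7.90 in replicate 1 and 9.49 in replicate 2 (8.69 ± 1.12, SD, n = 2). Its pooled fold of 9.57 was the second highest in the window and above 87.5% of all distal regions in the genome. Its sequence has a GATA site at the summit and a RUNX site a few bases on. The region 57.7 kb downstream, in a Pvt1 intron, had 5.90 in replicate 1 and 7.15 in replicate 2. These 3 regions formed the first cluster beyond the promoter, a cluster being 3 or more regions with neighbouring summits at most 20 kb apart.

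A second cluster inside Pvt1 had 6 regions from 94.2 to 142.6 kb downstream. Its strongest member, 137.1 kb downstream (chr15:62122100-62122962), had 7.40 in replicate 1 and 7.99 in replicate 2. The region 142.6 kb downstream followed with 6.76 in replicate 1 and 7.54 in replicate 2. Both were in the IDR-thresholded lists of both libraries. The first member, 94.2 kb downstream, had 5.40 in replicate 1 and 6.34 in replicate 2. It held 3 NFE2/AP-1 motif matches, reading TGACTCA or TGAGTCA. These letters are bound by NF-E2, a factor of platelet and globin gene expression, and by AP-1 factors. The region was in neither stricter list. The other 3 members had 6.08 and 6.03 (113.6 kb), 6.85 and 5.65 (120.3 kb) and 5.82 and 5.28 (121.4 kb), replicate 1 before replicate 2. Between this cluster and the next stood a single region 173.6 kb downstream, with 6.64 in replicate 1 and 6.86 in replicate 2.

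A further cluster inside Pvt1 had 7 regions from 205.8 to 254.9 kb downstream. The first, at 205.8 kb (chr15:62190469-62191519), was the widest of the near regions and had 7.84 in replicate 1 and 7.26 in replicate 2. It carried a pair of GATA sites, both on the forward strand, as printed above. The last, at 254.9 kb, had 4.67 in each library and was in neither stricter list. Between them, the region at 235.9 kb (chr15:62220783-62221721) lies near a TSS inside Pvt1. It had 6.21 in replicate 1 and 6.53 in replicate 2, and a pooled −log10 p of 83.9, above that of 91.4% of distal regions. It was the only distal region of the window with the composite E-box-GATA motif (TTATCCCCTCTTGTCAG, read on the reverse strand), the letters bound by TAL1 together with GATA1. However, the pattern searched leaves the base before GATA free, and in this match, read on its own strand, that base is G. The GATA part of the match is therefore not one of the GATA sites counted here, and the counted site of this region lies elsewhere in it. The match thus need not be a site of TAL1 with GATA1, and binding was not tested. The same pattern, with that base free, was found in 5.74% of all distal regions. The region at 224.7 kb had 5.87 in replicate 1 and 5.95 in replicate 2, and the other 3 members were weaker. Those at 230.4 and 230.8 kb were split in the conservative list and shared 1 region of 3.92 in replicate 1, while replicate 2 had 4.17 at 230.8 kb and none at 230.4 kb. The region at 230.4 kb had a pooled fold of only 2.07 and was not in the replicated list. The region at 238.1 kb had 4.22 in replicate 1 and 3.21 in replicate 2.

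Beyond this cluster, 3 scattered regions closed the near group at 312.0, 343.3 and 362.4 kb, none of them in a stricter list. The first had 4.65 in replicate 1 and 4.73 in replicate 2, the next 4.55 and 4.54, and the last 4.90 and 5.93.

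**Figure D3:**
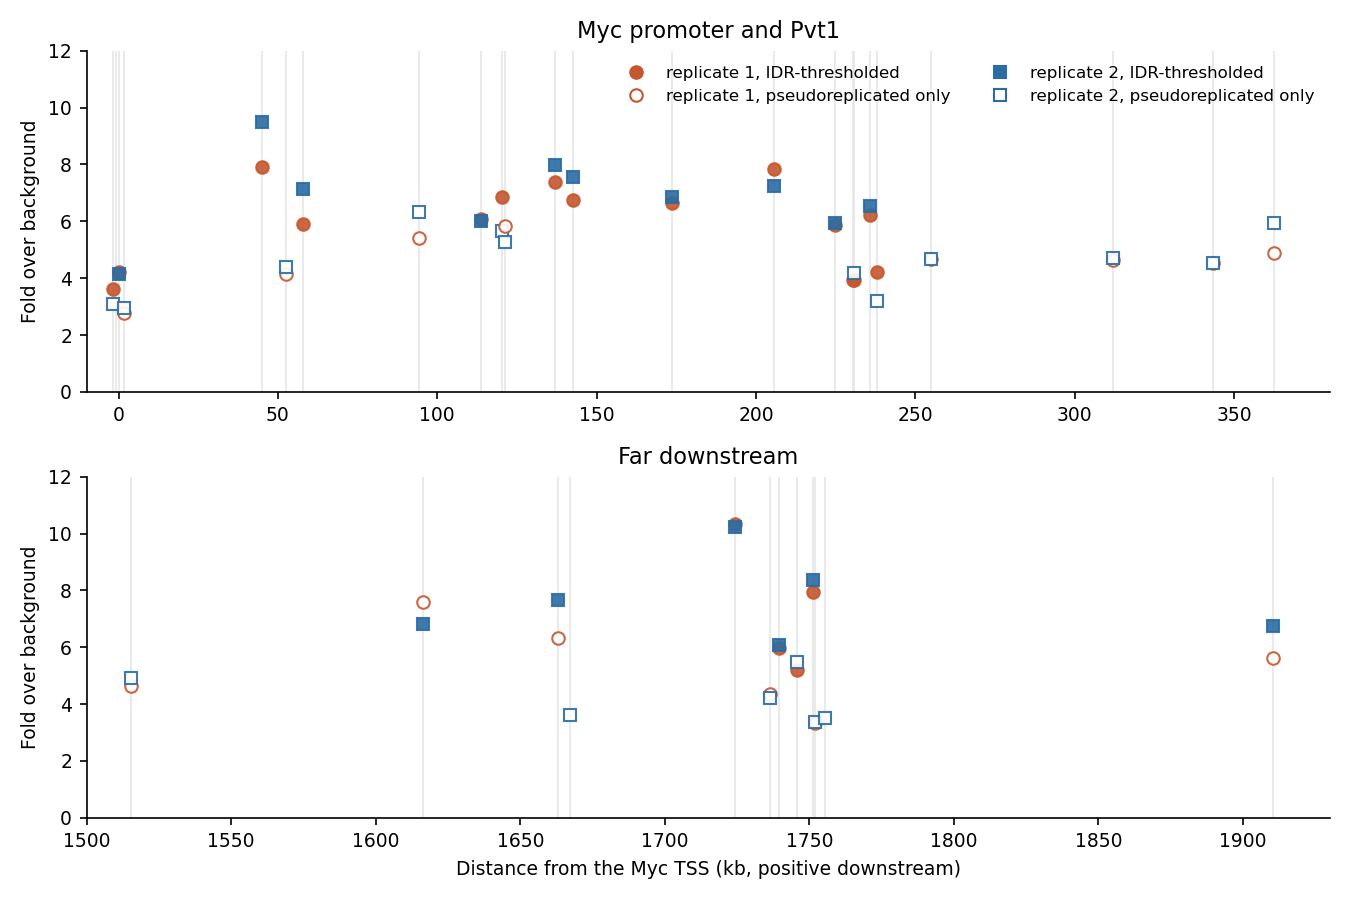
Fold over background (vertical axis) of each region in replicate 1 (circles) and replicate 2 (squares) by distance from the Myc TSS in kb (horizontal axis), for the near group (top) and the far group (bottom), from the pseudoreplicated lists, filled where the region is also in the library's IDR-thresholded list. At 1724.3 kb both libraries stand above every other region of the far group.

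The far group held the strongest region of the window. It lay 1724.3 kb downstream of the Myc TSS, inside the non-coding gene Gm41335 and before the start of 4930449C09Rik, at chr15:63709202-63709905. Its fold was 10.3 in replicate 1 and 10.2 in replicate 2 (10.3 ± 0.0698, SD, n = 2), and its pooled fold of 10.9 was above that of 93.8% of distal regions in the genome. Its pooled −log10 p of 97.7 was above that of 94.6% of them. At the promoter of Myc itself the pooled fold was 4.19. The strongest accessible region of the window was therefore not at a promoter but 1724.3 kb from the Myc TSS.

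That region opened the largest cluster beyond 0.5 Mb, 7 regions from 1724.3 to 1755.4 kb downstream, a span of 31.1 kb. The cluster held 7 of the 12 regions of the far group and 57.2% of its summed pooled fold. Its second strongest region, at 1751.2 kb in an exon of 4930449C09Rik (chr15:63736323-63736885), had 7.94 in replicate 1 and 8.35 in replicate 2. The third, at 1739.6 kb in an intron of the same gene, had 5.99 in replicate 1 and 6.07 in replicate 2. These 3 were in both IDR-thresholded lists, and the libraries ordered them the same way. The region at 1745.8 kb had 5.21 in replicate 1 and 5.47 in replicate 2 and was in the stricter list of replicate 1 alone.

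The remaining 3 members of the far cluster were weak and in neither stricter list. The region at 1736.5 kb had 4.36 in replicate 1 and 4.23 in replicate 2. The region at 1751.8 kb, next to the strong one at 1751.2 kb, had 3.34 in replicate 1 and 3.36 in replicate 2. The last, at 1755.4 kb near the TSS of Gm41336, was called in replicate 2 alone, at 3.53. Pooled folds within the cluster ran from 3.10 to 10.9, against 2.07 to 10.9 over all distal regions of the window. The nearest protein-coding TSS to the cluster was that of Gsdmc, 68.0 kb away, and no region was found at a Gsdmc promoter.

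Clusters of this size were not rare. The genome had 5689 clusters by the same rule, and 1148 of them (20.2%) had at least 7 regions. In 542 of the clusters every region lay over 50 kb from a protein-coding TSS, and 36 of these had at least 7 regions. Of the 5 clusters in the window, 3 were among those 542, namely the far cluster and the pair inside Pvt1 that begin at 94.2 and 205.8 kb. The 5 clusters held 27 of the 36 regions in the window (75%), against 62.5% of regions in the genome.

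The other 5 far regions were in no cluster. Those at 1616.4 and 1663.0 kb, both in introns of Gm41335, were among the 10 strongest of the window. The first had 7.59 in replicate 1 and 6.83 in replicate 2, and the second had 6.32 in replicate 1 and 7.68 in replicate 2. The region at 1616.4 kb carried a CTCF motif match at its summit, GCCATCTAGAGG, on the reverse strand. Among the other regions of the window that were searched, CTCF matches lay on the forward strand 1.9 kb upstream and 1.8 kb downstream of the Myc TSS, and on the reverse strand 0.2 and 173.6 kb downstream. The farthest, at 1910.4 kb in an intron of Gsdmc4, had 5.61 in replicate 1 and 6.76 in replicate 2. These 3 were in the stricter list of replicate 2 and not in that of replicate 1, although all were in the longer list of replicate 1. The first region after the empty stretch, at 1515.5 kb, had 4.65 in replicate 1 and 4.94 in replicate 2 and a pair of GATA sites. The region at 1667.3 kb was called in replicate 2 alone, at 3.60.

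Over the window, 13 of the 36 regions (36.1%) were overlapped in both IDR-thresholded lists, against 48.6% of regions in the genome. For distal regions these shares were 12 of 33 (36.4%) in the window and 38.8% in the genome. Of the rest, 6 were in the stricter list of replicate 1 alone, 3 in that of replicate 2 alone and 14 in neither. The 6 include the regions at 230.4 and 230.8 kb, which share 1 region of replicate 1. In the longer lists 32 of 36 (88.9%) were in both libraries, against 92.6% in the genome, so most regions missing from a library's stricter list were in its longer list. Of the 62 regions of the replicated list in the window, 35 (56.5%) were overlapped by a conservative region, against 55% in the genome. Of the 18 regions replicate 1 had in the window in its stricter list, 13 were overlapped in that of replicate 2 (72.2%, Wilson 95% interval 49.1 to 87.5), against 86.2% in the genome. Of the 16 of replicate 2, 13 were overlapped in replicate 1 (81.2%, interval 57 to 93.4), against 80.7% in the genome. The intervals cover counting error only. Both window intervals hold the genome-wide share.

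Where both libraries had a fold, they differed little. Over the 30 distal regions with a value in both, the ratio of replicate 2 to replicate 1 had a median of 1.02 and ran from 0.76 to 1.21. Over all distal regions its median was 1.09. Replicate 2 was higher in 19 of the 30, against 73.5% of distal regions in the genome. The SD between the libraries had a median of 0.258 in the window, against 0.485 in the genome.

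The distal regions around Myc were of middling strength for MEP. Their pooled fold had a median of 6.24, against 6.36 for all 32773 distal regions, and 15 of 33 stood at or above that genome-wide median. The near group had a median of 6.35 and the far group of 6.02. By position 26 lay in introns, 4 in exons and 3 between genes. Their median width was 517 bp, against 472 bp in the genome.

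GATA sites were the motif most often found. Of the 33 distal regions, 18 had one within 100 bp of the summit (54.5%, Wilson 95% interval 38 to 70.2), against 42.4% of all distal regions, a share that the interval holds. The count was 12 of 20 in the near group and 6 of 12 in the far group, 5 of these in the far cluster of 7. In that cluster all 6 sites read TTATCT or TTATCA on the forward strand, so each lay on the reverse strand, as the printed sequences show. This holds for AGATAA and TGATAA, the only letters counted. The printed sequence at 1745.8 kb also has AGATAG on the forward strand, letters that were not searched. In the near group 10 sites lay on the forward strand and 6 on the reverse. At least 2 GATA sites were found in 6 of 33 regions, against 11.5% in the genome.

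Other motifs were less frequent. RUNX letters were found in 5 of 33 regions (15.2%), against 21.5% of all distal regions. None of the 5 was in the far group, and 3 of them, at 44.9, 120.3 and 230.4 kb, had a GATA site too. ETS letters were found in 1 of 33, against 7.2% in the genome. The CTCF motif was found in 3 (9.09%, interval 3.14 to 23.6), against 22% in the genome. MEIS letters (TGACAG) were found in 7, against 17.2%, and KLF letters (CCNCACCC), bound by KLF1 of the red cell lineage, in 5, against 11.2%. NFE2/AP-1 (TGANTCA) and C/EBP (TTNNGCAA) matches were in 4 regions each, against 7.27% and 7.46%. The NFE2/AP-1 pattern leaves its middle base free. Its matches read TGACTCA or TGAGTCA at 94.2 and 343.3 kb, but TGAATCA at 362.4 kb and TGATTCA at 1667.3 kb. The E-box that MYC itself binds (CACGTG) was in 1 region, at 113.6 kb, which overlaps an annotated TSS inside Pvt1, against 4.09%. All motifs were searched on both strands, and the composite E-box-GATA motif can share its last letters with a GATA site. In 7 of the 33 no motif was found, and the share over all distal regions was not computed.

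**Figure D4:**
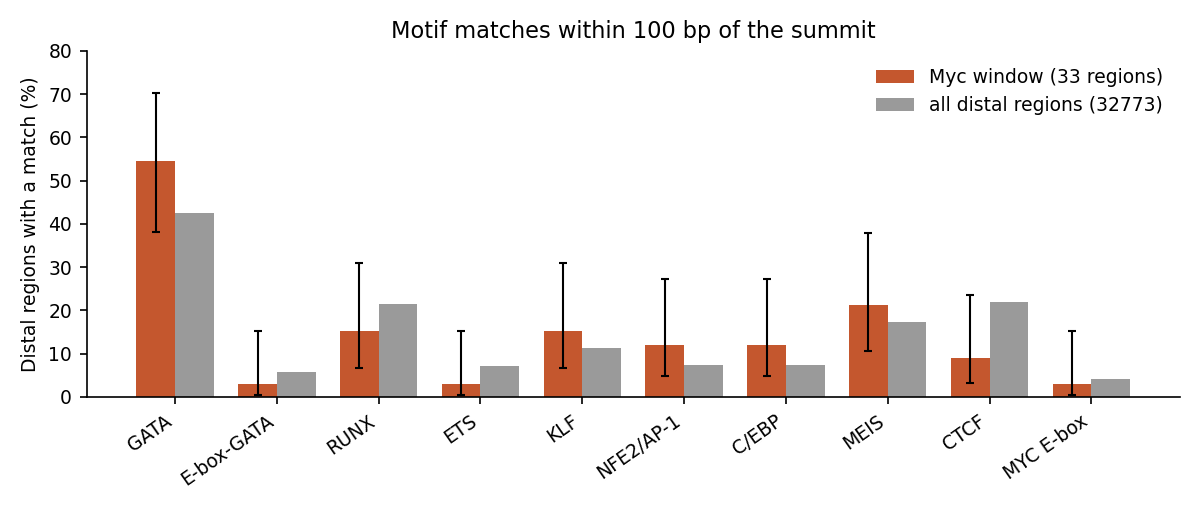
Share of distal regions with a motif match in percent (vertical axis) for 10 motifs, with the 33 distal regions of the Myc window in orange beside all 32773 distal regions of the genome in grey. Bars on the orange columns are Wilson 95% intervals for counting error, and GATA is the highest column at 54.5%, against 42.4% of all distal regions.

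Of 35 annotated genes with a TSS in the window, 8 had a conservative region at a TSS, a share not computed over all annotated genes. Among the 6 protein-coding genes these were Myc and Fam49b. In the genome 11965 of 21938 protein-coding genes had a promoter region in the conservative list. The promoter region of Fam49b, a regulator of the actin cytoskeleton, lies at a TSS just past the window, with 7.89 in replicate 1 and 8.04 in replicate 2. The 4 Gsdmc genes, of the gasdermin family of pore-forming proteins, had none in any list of either library. The non-coding genes with one were Pvt1, Gm37947, Gm27913, Gm27782, Gm27718 and Gm41336. Gm41335 and 4930449C09Rik, which carry most of the far group in their bodies, had no region at a TSS.

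Set beside other genes, Myc did not have many regions in its window. With 36 regions it ranked 16889 of 21938 protein-coding genes, whose median was 67 in the same window, and windows of neighbouring genes share regions. In the stretch from 10 kb to 0.5 Mb downstream alone it had 20, more than 64.8% of genes, whose median was 14. From 1.5 to 2 Mb downstream it had 12, more than 56.8% of genes, whose median was 9. The picture was different among genes with no other protein-coding TSS within 1 Mb downstream. Of 137 such genes with an accessible promoter, Myc was the third by regions up to the next protein-coding TSS, with 33 over 1.82 Mb, against a median of 6. These stretches differ in length, and the counts were not divided by it, so a long stretch alone can raise the rank.

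The genes closest to Myc in that count were Sox6, with 32 regions over 1.24 Mb, Adgrl2, with 30 over 2.09 Mb, and Csnk1g3, with 23 over 1.13 Mb. SOX6 is a transcription factor of red cell maturation, ADGRL2 an adhesion receptor and CSNK1G3 a casein kinase. Their layouts differed. The longest gap was 1.15 Mb for Myc and 1.01 Mb for Adgrl2, but 0.17 Mb for Sox6 and 0.34 Mb for Csnk1g3. Of the 33 regions of Myc, 22 lay within 0.5 Mb of the TSS, as did 21 of Sox6, 17 of Adgrl2 and 5 of Csnk1g3.

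The genes whose proteins work with MYC had accessible promoters throughout. All 13 genes of the MYC network list had a promoter region in both IDR-thresholded lists, against 45.8% of protein-coding genes. Of the MYC relatives, Mycn had 5.91 in replicate 1 and 5.83 in replicate 2, and Mycl had 9.61 and 9.11. Max, the shared partner, had 8.48 in replicate 1 and 9.94 in replicate 2. Myc had a lower promoter fold than all 13 in replicate 1 and than 12 of them in replicate 2, where Mxi1 had 4.07.

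The promoters of genes whose proteins compete with MYC for MAX covered a wide range. Mga was at 11.3 in replicate 1 and 9.98 in replicate 2, and Mxd4 at 10.6 and 11.6. Mxd1 had 9.74 and 9.96, while Mxd3 had 4.83 and 5.00 and Mnt 6.32 and 6.13, each in replicate 1 and then replicate 2, the Mnt value at a TSS inside the gene. For Mxi1 the libraries differed most in ratio, with 5.89 in replicate 1 and 4.07 in replicate 2. Its pooled fold was 7.13, at a region near a TSS inside the gene. Whether the values of both libraries come from that region was not checked. Among the MLX branch, which responds to glucose, Mlx had 5.16 in replicate 1 and 5.87 in replicate 2, Mlxip 9 and 8.84, and Mlxipl 9.76 and 11.2, the last at a TSS inside the gene. Zbtb17, whose product MIZ1 works with MYC at genes that MYC represses, had 6.86 in replicate 1 and 8.42 in replicate 2.

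**Figure D5:**
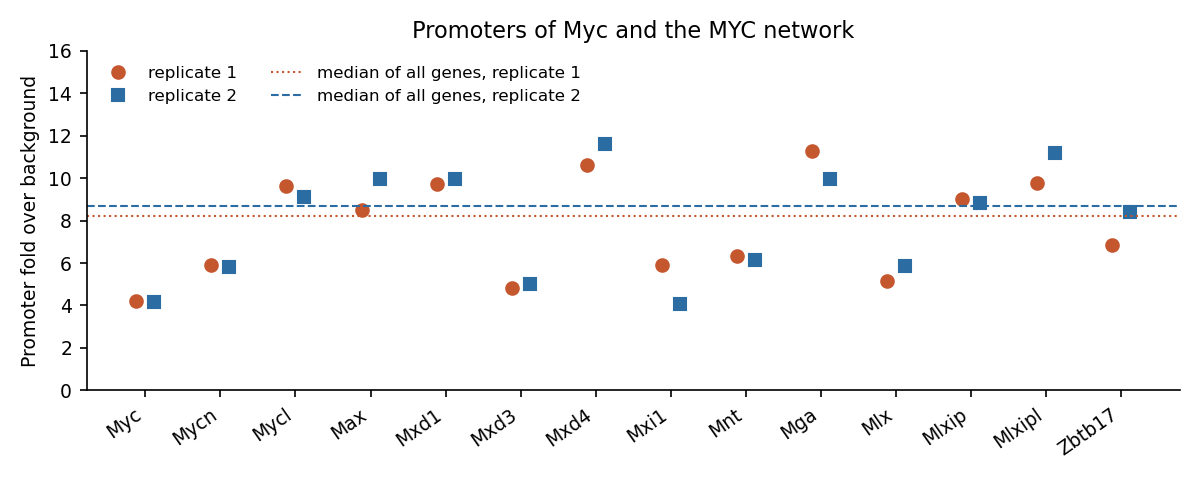
Promoter fold over background (vertical axis) of Myc and the 13 genes of the MYC network (horizontal axis) in replicate 1 (circles) and replicate 2 (squares), from the IDR-thresholded lists, with the median of all genes with a promoter region as a dotted and a dashed line. Myc stands at 4.22 and 4.16, below both medians of 8.23 and 8.68.

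The cell type label was checked at marker promoters. Of 9 erythroid and megakaryocyte genes, 6 were accessible in both IDR-thresholded lists (Gata1, Klf1, Epor, Zfpm1, Tal1 and Nfe2), and 8 in both pseudoreplicated lists. Of 7 granulocyte and macrophage genes 2 were (Spi1 and Cebpa) and of 4 T cell genes 1 (Cd3d). The B cell genes Ebf1 and Pax5 were accessible in both as well, where 45.8% of all protein-coding genes were. Ebf1 had 9.94 in replicate 1 and 11.2 in replicate 2, and Pax5, near a TSS inside the gene, had 9.62 and 11.2. In each library both stood above the 6 erythroid and megakaryocyte promoters, which ran from 3.75 (Tal1) to 8.94 (Nfe2) in replicate 1 and from 3.77 (Tal1) to 9.35 (Epor) in replicate 2. Mpo, Elane, Cd79a and Cd8a had no promoter region in either library's longer list. The part of other cell types in the regions around Myc was not tested.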

How the data were processed

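ATAC-seq of 2 MEP libraries was used as the authors' peak lists. Their build is mm10, per the labels and the read-me text. In the lists, the deposited ratio is a fold per peak, read from its place and values as the fold over local background, and was not rescaled between libraries. The deposited −log10 p-value is per peak and not adjusted. The deposited score used to trace the conservative list is a −log10 global IDR. The authors called peaks per library and on pooled libraries. The aligner, the caller and the read depth of a library are not given in the sources used, so no interval that needs depth is given.

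Peaks sharing at least 1 bp or touching were merged with Python 3.11.15 and NumPy 2.4.6, keeping the summit and fold of the peak with the highest −log10 p. Genes came from GENCODE M21 and bases from GRCm38.p6. A promoter region overlapped a TSS within 1 kb, and distal regions had no protein-coding TSS within 1 kb. Clusters joined summits at most 20 kb apart. The code was tested on simulated data. With 1 group and 2 libraries no test was made. Each SD measures the spread between these 2 libraries, which may be technical.

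The members, gene lists, motifs and clusters were chosen with earlier results of these data known. Regions named are those within 10 kb of a Myc TSS, the 10 of highest pooled fold, all of the largest far cluster and the first and last of other clusters. The other members were added after their values were seen, so that each is accounted for. Genes named are those of the window and the MYC network, and the 3 nearest Myc in regions up to the next protein-coding TSS. Alternatives were other lists, merging, gap, window, fold and overlap limits, searched widths and single libraries. One B cell marker is not reported here.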

Additional observations from a re-analysis of the deposited data

How the results depend on the processing

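The 60 recomputed values split into 32 that stayed close and 28 that moved, and the cause was not tested except where a shorter or longer list sets the count. The number of regions in the window was 62 in the replicated list, 155 in the archived one and 60 in the pooled pseudoreplicated one, 60 when each summit was counted, 13 in the upper 50% by fold, and 16 to 18 in single libraries. The number of clusters was 9 in the archived list, 1 in the upper 50% and 2 to 3 in single libraries. The far cluster had 97 regions in the archived list, where it runs past the window, 4 in the pooled IDR-thresholded list, 0 in the upper 50% and 3 to 4 in single libraries. Its middle, at 1739.8 kb, was at 1745.9 kb with a gap of 10 kb, 1729 kb in the replicated list, 2215.5 kb in the archived list, and 1737.7 kb in the pooled IDR-thresholded list and in each single library. The upper 50% gave no middle. Both shares of shared regions were 100% against the pseudoreplicated list of the other library and in the upper 50%. GATA sites were in 29 of 59 distal regions of the replicated list (49.2%, against 39.8% in the genome), and in 10 of 15 without replicate 1 (66.7%, against 46.8%) and 13 of 17 without replicate 2 (76.5%, against 47.5%). The promoter fold of Myc and the MYC network count stayed close under every alternative run on them. The share of genes with fewer regions than Myc, 22.1%, was 12.6% in the upper 50%, 14.4% without replicate 1, 18.6% without replicate 2 and 35.8% for 0.5 Mb on both sides, although the rank itself, 16889, stayed within 1.5 times. No paired analysis was possible because there is 1 group. The depth is unknown, so a region that is missing from a list was not detected there and need not be closed.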

Other observations

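The longer lists held further regions around Myc that the conservative list leaves out, named here after their values were seen. The replicated list had 27 of them, 15 inside Pvt1 and 9 beyond 1.5 Mb, with pooled folds from 2.06 to 5.19. The highest, 88.4 kb downstream in a Pvt1 intron, had 3.18 in replicate 1 and 5.81 in replicate 2 in the pseudoreplicated lists. A region 471.9 kb downstream, between Pvt1 and Gm41333, had 6.04 in replicate 2 and was not in the replicate 1 list. In the far stretch a pair of regions 1702.7 and 1708.4 kb downstream, just before the far cluster, had pooled folds of 4.25 and 4.05 in the replicated list.

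The archived list overlapped the conservative one at 42 of its 155 regions in the window (27.1%), against 26.3% in the genome.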
